A study of Mus musculus with 4 samples.

Results

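The brush border of the duodenum was described here by 38 genes for digestive enzymes, for transporters and for the proteins that build its microvilli. Some of the transporters are basolateral or belong to secretory cells, as given below. The genes were chosen by name, with earlier results of these data known, and probes were assigned to them through RefSeq accessions. Each of the 38 genes had a probe on the arrays, among 32585 genes or identifiers in all, and 6 of them had a second probe, which made 44 probes. RNA came from male mice of 20 weeks, either IP6K2-KO or their WT littermates. IP6K2 is an inositol hexakisphosphate kinase that makes the inositol pyrophosphate IP7. All 4 groups shared the same handling: CE-2 as the maintenance diet, then the purified diet iVid-neo for 1 week, then a fast of 48 h before the organs were taken. The groups were WT spinal cord, KO spinal cord, WT duodenum and KO duodenum, and each was measured on 1 array. The study describes its knockout line as lacking exon 6 of IP6K2, which encodes the kinase domain. The samples' descriptions do not say whether animals were pooled or whether both tissues came from the same mouse.

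Absorptive enterocytes carry a dense layer of microvilli on their luminal face. Enzymes anchored in this membrane finish the digestion of sugars and peptides, and transporters beside them carry the products into the cell. Bundled actin filaments hold each microvillus upright, and protocadherin links between the tips pack the microvilli together. The spinal cord has no such absorptive surface and serves here as the comparison tissue, although several of the transporters also work in neurons, glia or vessels.

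With 1 array per group there was no spread between animals, so no test was made and every difference below compares 2 arrays and not 2 genotypes. Values are the scanner's processed signal, an intensity, and its log2 value relative to the 75th percentile of the array. That percentile was 905 and 971 on the WT and KO-labelled spinal cord arrays, and 68.0 and 323 on the WT and KO-labelled duodenum arrays, and the share of probes well above background was 51.6% and 66.3% on the last 2. The Ip6k2 signal was 452 and 1320 in spinal cord and 139 and 572 in duodenum, WT first, which gave log2 differences of 1.45 and −0.21, and because the signal was not lower on the KO-labelled spinal cord array, arrays are called by their labels. The sources used here do not place the probe inside or outside exon 6, and outside it the probe checks nothing. All 8 pan-epithelial markers were well above background on both duodenum arrays, and all 7 neuronal markers on both spinal cord arrays. In the other tissue, WT first, 4 and 5 of the pan-epithelial markers and 4 and 6 of the neuronal markers were. On the spinal cord arrays 76.7% and 77.4% of all probes were well above background. In such bulk RNA, fewer cells of a type and less RNA per cell cannot be told apart.

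The members separated the tissues on both pairs of arrays. In the WT pair, 35 of the 37 members well above background on at least 1 array were at least 2-fold higher in duodenum, against 30.2% of all 25223 genes, and 1 was at least 2-fold lower, against 23.1%. In the KO-labelled pair, 36 of 38 were at least 2-fold higher, against 30.3% of 25728 genes, and 1 was at least 2-fold lower, against 25.4%. The median log2 difference, duodenum minus spinal cord, was 6.95 over the 26 members measured on both WT arrays and 7.33 over the 27 measured on both KO-labelled arrays, where the median over all genes was 0.63 and 0.30. The median of all genes itself moved with the scaling, to −4.41 in the WT pair and −1.56 in the KO-labelled pair when arrays were scaled on spiked-in controls, and the members' median was then 1.91 and 5.47.

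**Figure D1:**
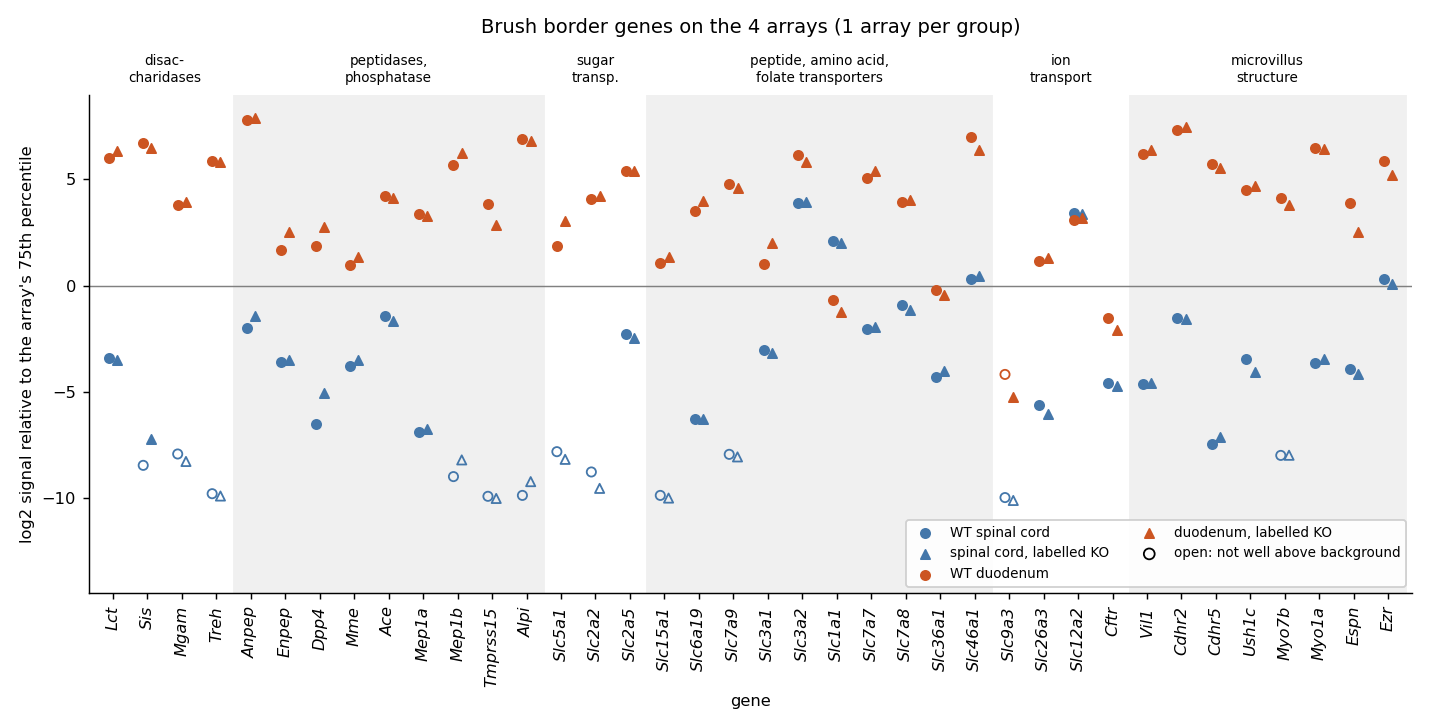
Log2 signal of each of the 38 members relative to the 75th percentile of its array (vertical axis, 0 is that percentile), grouped by role along the horizontal axis. Orange marks duodenum, blue spinal cord, circles the WT arrays and triangles the arrays labelled KO, and open symbols are not well above background. The duodenum points lie above the spinal cord points for 36 members, and the exceptions are Slc1a1 and Slc12a2.

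Digestive enzymes gave some of the widest gaps. Alpi, the intestinal alkaline phosphatase, had a signal of 0.959 on the WT and 1.61 on the KO-labelled spinal cord array, neither well above background, and of 8246 and 36562 on the WT and KO-labelled duodenum arrays. Its log2 difference between tissues was at least 14.58 in the WT pair and at least 14.64 in the KO-labelled pair. Treh, which splits trehalose, was likewise not well above background in spinal cord (1.01 and 1.01) and reached 3948 and 18169 in duodenum. The spinal cord signals of both genes thus set only bounds on either pair. Sis, the sucrase-isomaltase, gave 2.56 and 6.58 in spinal cord, of which only the second was well above background, and 7242 and 28745 in duodenum. Lct, the lactase, was above background on every array, with 86.4 and 86.8 in spinal cord and 4343 and 25947 in duodenum, a log2 difference between tissues of 9.39 and 9.81.

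In all, 11 of the 38 members were not well above background on either spinal cord array, and neither were 7362 of all 32585 genes. They were the enzymes Mgam, Treh, Mep1b, Tmprss15 and Alpi, the transporters Slc5a1, Slc2a2, Slc15a1, Slc7a9 and Slc9a3, and Myo7b, an unconventional myosin of the microvillus tip. The microvillus genes as a group were at least 2-fold higher in duodenum in 8 of 8 cases on both pairs. Vil1, the actin bundler villin, had 36.0 and 40.5 in spinal cord against 4925 and 26801 in duodenum, and Ezr, the membrane linker ezrin, had 1115 and 1035 against 4037 and 11805. Ezr was well above background in both tissues, and its log2 difference of 5.59 and 5.10 was the smallest of the 8 in both pairs.

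Not every member followed the tissue. Slc1a1, a glutamate and cysteine carrier that neurons also use, had 3821 and 3846 in spinal cord and only 42.1 and 138 in duodenum. Its log2 difference was −2.77 in the WT pair and −3.21 in the KO-labelled pair, lower in duodenum in both. Slc12a2, the sodium-potassium-chloride cotransporter of secretory cells, had 9733 and 10081.5 in spinal cord and 579 and 2887 in duodenum, with differences of −0.34 and −0.21. Its size rests on the scaling: the WT pair passed 2-fold lower in 5 of the 8 alternatives other than spiked-in scaling, down to −3.08 with quantiles within each tissue, and was −5.37 with spiked-in scaling, while the KO-labelled pair ran from −2.76 to 0.059. Slc3a2, the heavy chain that partners several amino acid carriers, was bright in both tissues, with 13600 and 14823 in spinal cord and 4840 and 18165 in duodenum. Its difference of 2.24 and 1.88 turned to −0.62 and −0.57 when quantiles were normalized within each tissue, so its direction rests on the scaling. Slc9a3, the apical sodium-hydrogen exchanger, was the dimmest member: 0.893 and 0.872 in spinal cord and 3.74 in WT duodenum were not well above background, and 8.36 on the KO-labelled duodenum array was, at least 5.86-fold above spinal cord.

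**Figure D2:**
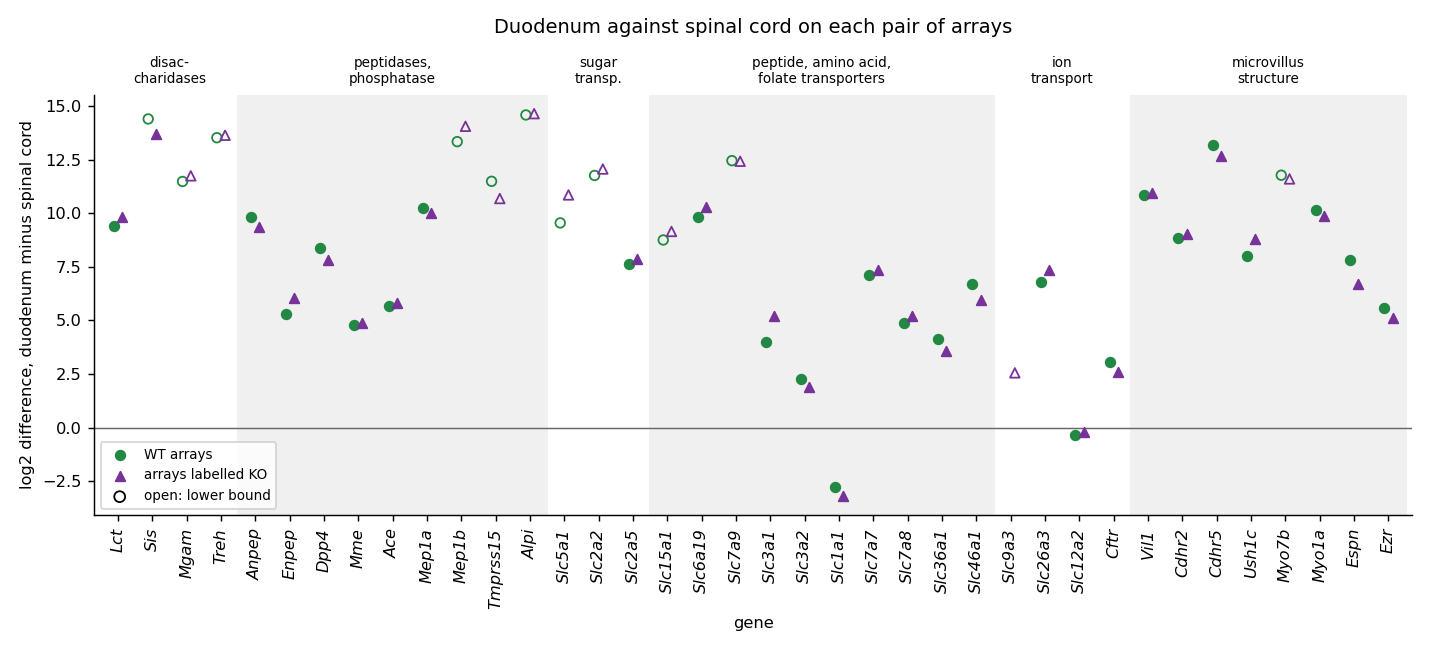
Log2 difference, duodenum minus spinal cord, for each member on the WT arrays (green circles) and on the arrays labelled KO (purple triangles), with open symbols for lower bounds. Most points lie above 0, Slc1a1 lies below it at −2.77 and −3.21, and for the 26 members measured on all 4 arrays the symbols of a gene lie at most 1.21 apart.

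The members' tissue differences were compared between the 2 pairs, which share no array. For the 26 members measured on all 4 arrays, the KO-labelled pair minus the WT pair ran from −1.14 for Espn to 1.21 for Slc3a1 with a median of 0.11, and 24 of them differed by less than 1 on the log2 scale. The share of all genes that lay as close was not computed. This value equals the duodenum difference minus the spinal cord difference, KO-labelled minus WT. The second Slc36a1 probe gave 3.99 in the WT pair and 1.87 in the KO-labelled pair. With spiked-in scaling the medians of the 2 pairs were 1.91 and 5.47.

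The promoters of the members were searched for short motifs, and a few are shown because these genes carry the tissue and duodenum differences. Of the 38 members, 35 have a promoter in the RefSeq table of build GRCm38.p6, and the 250 bases before the start were read, with the first start taken where a gene has several. The core CAAAGT of the motif of HNF4, a nuclear receptor of enterocytes and hepatocytes, was found on either strand in 10 of 35 members (28.6%) and in 12.5% of 27025 genes. The half-site GTTAAT of HNF1, on either strand, was in 5 members (14.3%) and 6.52% of genes. The GATA letters AGATAA, on either strand, were in 5 members (14.3%) and 10.3% of genes, and TATAAA, on the gene's strand, was in 5 members (14.3%) and 8.12% of genes. These are matches of letters and not sites of binding. Below, capitals mark a match to any of the 4 motifs, each sequence runs 5′ to 3′ on the gene's strand, and its last base lies next to the start. Alpi and Slc15a1 are shown as genes not well above background in spinal cord, Slc3a1 and Slc5a1 as those at least 2-fold higher on the KO-labelled duodenum array, and Slc1a1 as the member at least 2-fold higher in spinal cord on both pairs. Slc5a1 was also not well above background in spinal cord. Of the 11 such members, 9 have a promoter and 4 of these hold the HNF4 core, against 6 of 26 other members. In Slc3a1 the upstream TATAAA and AGATAA share 1 base.
Alpi (chr1:87101607-87101856, strand minus): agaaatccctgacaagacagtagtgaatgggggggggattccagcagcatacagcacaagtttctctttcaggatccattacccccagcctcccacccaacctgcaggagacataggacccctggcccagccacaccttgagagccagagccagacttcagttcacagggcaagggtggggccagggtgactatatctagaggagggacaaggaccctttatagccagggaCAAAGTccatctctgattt
Slc15a1 (chr14:121505255-121505504, strand minus): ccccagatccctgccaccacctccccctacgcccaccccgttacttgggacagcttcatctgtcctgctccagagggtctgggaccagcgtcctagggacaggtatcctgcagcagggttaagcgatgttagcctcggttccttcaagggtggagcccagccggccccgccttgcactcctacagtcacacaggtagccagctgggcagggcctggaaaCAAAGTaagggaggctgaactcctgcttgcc
Slc3a1 (chr17:85028097-85028346, strand plus): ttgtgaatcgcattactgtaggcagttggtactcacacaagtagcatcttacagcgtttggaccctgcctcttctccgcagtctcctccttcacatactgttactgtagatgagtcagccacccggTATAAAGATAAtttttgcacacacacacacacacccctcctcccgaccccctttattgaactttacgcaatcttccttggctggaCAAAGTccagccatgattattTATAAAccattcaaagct
Slc5a1 (chr5:33103969-33104218, strand plus): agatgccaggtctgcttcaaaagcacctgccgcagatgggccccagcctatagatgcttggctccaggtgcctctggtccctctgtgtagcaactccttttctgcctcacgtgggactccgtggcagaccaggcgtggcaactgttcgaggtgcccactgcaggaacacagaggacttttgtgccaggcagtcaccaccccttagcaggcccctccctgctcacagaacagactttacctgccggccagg
Slc1a1 (chr19:28834885-28835134, strand plus): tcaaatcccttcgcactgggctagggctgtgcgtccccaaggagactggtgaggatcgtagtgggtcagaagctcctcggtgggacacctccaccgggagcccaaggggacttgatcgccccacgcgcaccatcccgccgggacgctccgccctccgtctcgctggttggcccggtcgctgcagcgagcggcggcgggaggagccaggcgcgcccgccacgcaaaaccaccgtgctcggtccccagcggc
Alpi and Slc15a1 each hold 1 match, the HNF4 core, which begins 19 and 31 bases before the start. Slc2a2, also not well above background in spinal cord and not shown, holds the HNF4 core on the opposite strand. There it begins 250 bases before the start, at the far edge of the window. Slc3a1 holds 4 matches, with its HNF4 core beginning 39 bases and one TATAAA 18 bases before the start. No match to these letters lies in the window of Slc5a1 or of Slc1a1.

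Between the duodenum arrays most members differed little. Of the 38 members, 37 were well above background on both arrays. On the KO-labelled array, 2 were at least 2-fold higher, where 7.2% of all 21436 genes were, and 1 was at least 2-fold lower, where 11.9% were. The median log2 difference, KO-labelled minus WT, was 0.07 over these members and −0.11 over all 16816 genes measured on both arrays. Of the members, 20 were above 0 and 17 below, 91.9% lay within 2-fold, where 77.9% of all genes did, and their SD over genes was 0.52 against 0.89. The SD of a single difference, taken from the probes that each array carries in 10 copies, was between 0.067 and 0.131, and it covers spots on an array and not animals. Raw signals of these members were between 1.84 and 10.5 times as high on the KO-labelled array, against 4.75 times for the 75th percentile.

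The members' brightness bears on these counts. In the brightest 20% of genes, which held 27 of the 37, the median difference was −0.38 over all genes and −0.04 over the members, and 81.2% of genes and 96.3% of members lay within 2-fold. The next 20% held 7 members, all above 0 with a median of 0.85, where all genes there had −0.06. In that class 85.6% of genes and 71.4% of members lay within 2-fold. The scaling moved the median of the members to 0.33 when quantiles of the 4 arrays were normalized and to 0.56 with normexp, a background correction that models signal and noise, where all genes had 0.01 and −0.18. Under the 8 alternatives other than scaling on spiked-in controls, 25 of the 37 members kept their sign, 19 of them higher and 6 lower on the KO-labelled array. These 8 are not separate checks. In duodenum both normexp settings gave nearly the same values, as did the deposited table and quantiles of the 4 arrays. The median of each array moved every gene by the same small amount. For a gene with a single probe, the mean of its probes repeats the main value. Counts out of these 8 therefore overstate how often a value was checked. Spiked-in scaling moved the median of all genes to 2.89, and under it each of the 17 members with a negative difference turned positive.

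**Figure D3:**
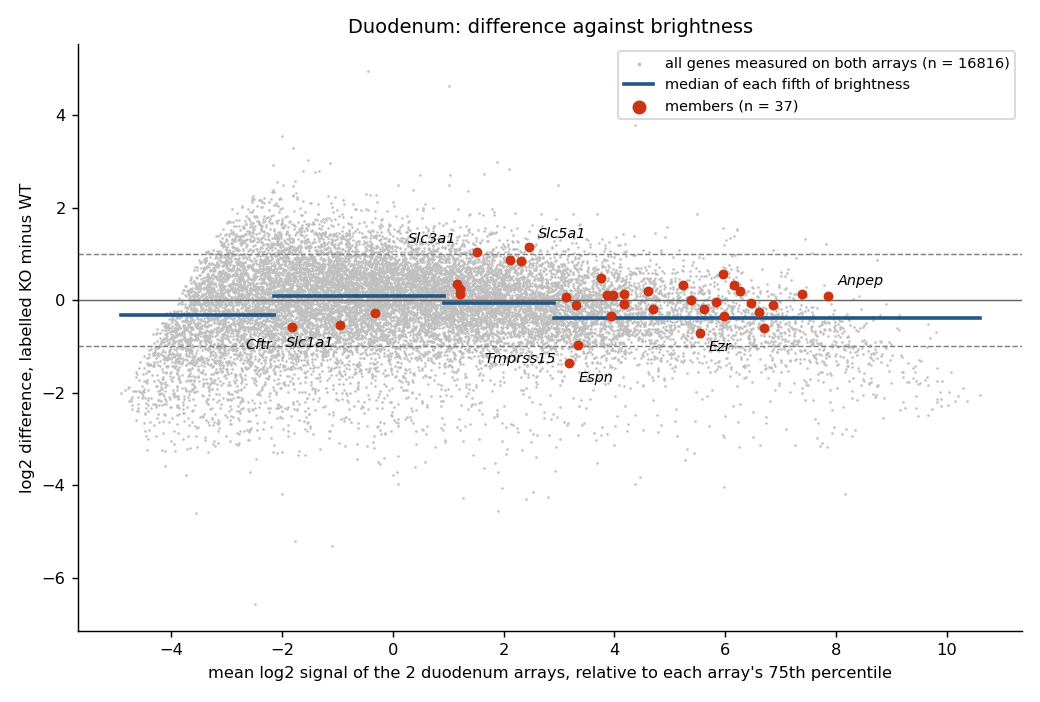
Log2 difference, KO-labelled minus WT, against mean log2 signal relative to the 75th percentile, for the 16816 genes measured on both duodenum arrays (grey) and the 37 members among them (red). Blue lines are the median of genes in 5 classes of brightness, dashed lines mark 2-fold, and the members lie mostly in the brightest class, where the median of all genes was −0.38.

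Among the representing probes, the sugar transporters held the largest increase. Slc5a1, the sodium-glucose cotransporter of the apical membrane, had a signal of 251 on the WT and 2639 on the KO-labelled duodenum array, and 3.997 and 3.34 in spinal cord, not well above background. Its log2 difference in duodenum was 1.15 with a spot SD of 0.071, or 2.21-fold. It was at least 2-fold under each of the 8 alternatives, from 1.15 to 1.48, but these overlap as given above. The lowest repeats the main value, because the gene has a single probe. The difference was 1.16 with quantiles of the 4 arrays and 1.31 with quantiles within the tissue. With lowess it was 1.27, and with normexp 1.48. The other sugar carriers stayed level: Slc2a2, the basolateral glucose carrier, had 1165 and 6102 with a difference of 0.14, and Slc2a5, the fructose carrier, had 2824 and 13507 with 0.01. Of the glucose carriers, the apical one thus had the larger difference on these 2 arrays.

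The peptide and amino acid carriers were split around 0, with 5 of 10 above. Slc3a1, the heavy chain of the cystine and dibasic amino acid carrier, had 136 and 1318 in duodenum and 112 and 107 in spinal cord. Its duodenum difference was 1.03 with a spot SD of 0.082, and it was at least 2-fold under each of the 8 alternatives, from 1.01 to 1.24. Slc7a9, its light chain partner, had 1881 and 7838 with a difference of −0.19, on the other side of 0. Slc6a19, the carrier of neutral amino acids, had 778 and 5135 (0.48), and Slc15a1, the peptide carrier PEPT1, had 144.5 and 810 (0.24). Slc7a7 and Slc7a8, basolateral light chains, differed by 0.32 and 0.10, and their heavy chain Slc3a2 by −0.34. Lower values were found for Slc1a1 (42.1 and 138, −0.53), for Slc36a1, the proton-coupled amino acid carrier (59.9 and 234, −0.28), and for Slc46a1, the proton-coupled folate carrier (8724 and 27397, −0.60). Slc1a1 and Slc36a1 stayed below 0 under each of the 8 alternatives, whereas Slc46a1 ran from −0.57 to 0.059. The second Slc36a1 probe was dim, with 23.0 and 23.5, and differed by −2.22.

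The membrane peptidases gave values on both sides without any 2-fold difference. Enpep, the glutamyl aminopeptidase, had 217 and 1875, and Dpp4, a dipeptidyl peptidase, had 252 and 2152, with differences of 0.86 and 0.85. Mep1b, the beta subunit of the metalloprotease meprin, had 3478 and 24291 with 0.56, and its alpha partner Mep1a had 699 and 3085 with −0.10. Enpep, Dpp4 and Mep1b were above 0 under each of the 8 alternatives and passed 2-fold under 2, 2 and 4 of them. Tmprss15, the enteropeptidase that activates trypsinogen, went the other way with 964 and 2349, a difference of −0.96 that ran from −0.96 to −0.37. Anpep, the aminopeptidase N, was very bright with 15364 and 77644 and differed by 0.09, but by 1.105 when quantiles were normalized within the tissue. Mme, the peptidase neprilysin, differed by 0.36 and by 0.80 on its second probe, and Ace, the angiotensin-converting enzyme, and Alpi by −0.08 and −0.10.

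None of the disaccharidases reached 2-fold by the probe that represented it. Lct differed by 0.33, Sis by −0.26, Treh by −0.04 and Mgam, the maltase-glucoamylase, by 0.10. Lct was above 0 under each of the 8 alternatives, whereas Sis and Treh changed sign. The 2 Mgam probes disagreed: the brighter went from 959 to 4894 and the other from 820 to 1315, log2 differences of 0.10 and −1.56.

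Among the ion transporters and channels, Slc26a3, the chloride-bicarbonate exchanger, had 151 and 788 and differed by 0.14, and Slc12a2 differed by 0.07. Cftr, the chloride channel of secretory cells, was dim with 23.7 and 74.8 and differed by −0.59 with a spot SD of 0.131, below 0 under each of the 8 alternatives. Slc9a3 was above background only on the KO-labelled array, and no fold could be given.

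By the representing probes and the 75th percentile scaling, the microvillus genes held the largest decrease. Espn, the actin bundler espin, had 996 on the WT and 1832 on the KO-labelled duodenum array, a difference of −1.37 with a spot SD of 0.067, or 2.58-fold lower. Its second probe gave 884 and 1533, a difference of −1.45. Both probes of the gene therefore agree in direction and size, although Espn stayed past 2-fold in only 4 of the 8 alternatives, which ran from −1.41 to −0.81. Ezr had a difference of −0.70 that stayed below 0 and was −0.060 under normexp. Vil1, the other bundler on the list, differed by 0.20. Cdhr2 and Cdhr5, the protocadherins of the links between tips, differed by 0.12 and −0.20. Ush1c, the scaffold harmonin of these links, differed by 0.19, and the motors Myo7b and Myo1a by −0.33 and −0.06.

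**Figure D4:**
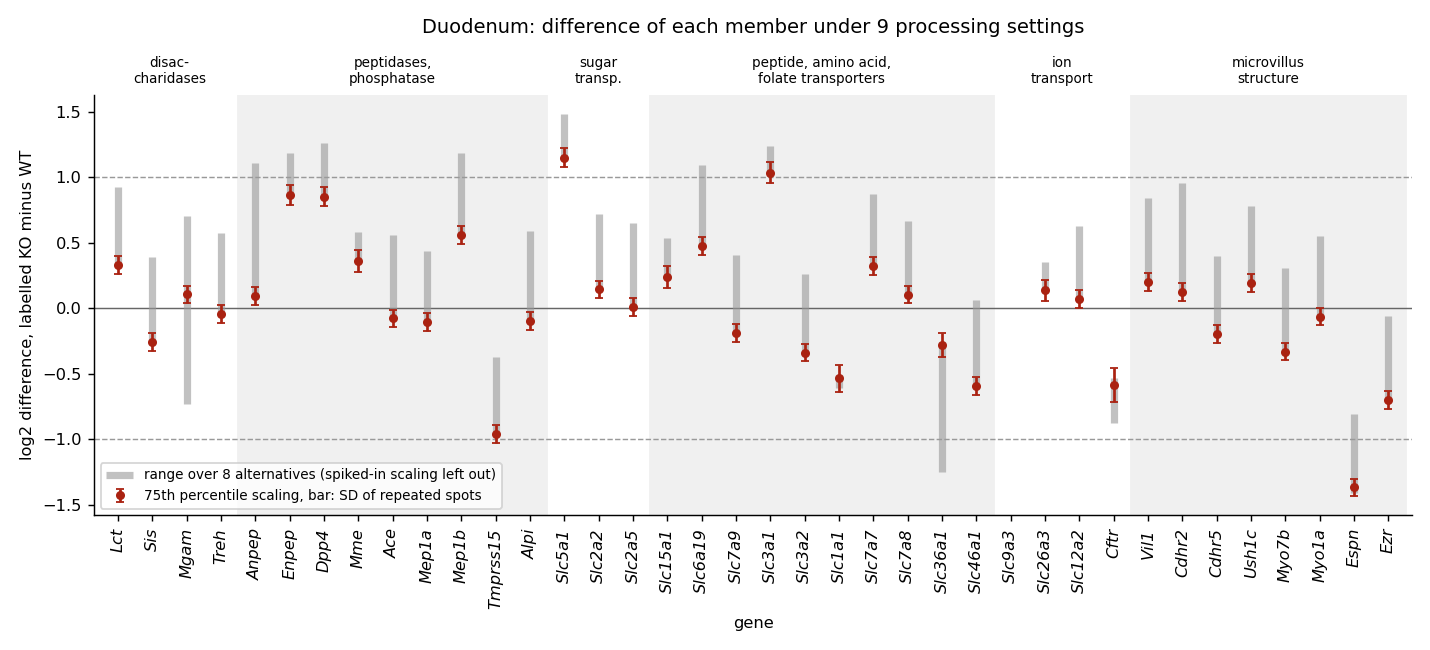
Log2 difference between the duodenum arrays, KO-labelled minus WT, for each of the 37 members measured on both (red points, bars are the SD of repeated spots) with its range over 8 processing alternatives (grey). Dashed lines mark 2-fold. Slc5a1 and Slc3a1 lie at or above the upper line throughout, Espn crosses the lower line, and grey bars reach mostly upward.

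A list of other brush border and absorption genes was read beside the members. Of 39 on the arrays, 4 were at least 2-fold higher and 3 at least 2-fold lower on the KO-labelled duodenum array, where 7.2% and 11.9% of all genes were, with a median of −0.13 over the 37 measured on both. Of the 37, the 3 highest were Slc9a2, another sodium-hydrogen exchanger (18.9 and 228, 1.34), Anks4b, a scaffold of the tip links (47.7 and 501, 1.15), and Slc16a10, an aromatic amino acid carrier (231 and 2288, 1.06). Slc23a1, a vitamin C carrier, was well above background only on the KO-labelled array (0.896 and 43.2) and higher by at least 1.08 on the log2 scale. The 3 lowest of the 37 were Espnl, a gene of the espin family (75.8 and 89.1, −2.01), Myo6, a motor toward the base of microvilli (21.0 and 40.9, −1.29), and Slc52a3, a riboflavin carrier (156 and 328, −1.17). Espn and Espnl were thus lowest in their respective lists by the representing probes and the 75th percentile scaling.

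Other cell type markers also differed between the duodenum arrays. Blood genes were at least 2-fold lower on the KO-labelled array in 6 of 6 cases, with a median of −3.39, and their summed signal relative to the 75th percentile was 1532 on the WT and 88.4 on the KO-labelled array. Pancreatic acinar genes had a median of −1.21, with 4 of 8 at least 2-fold lower and sums of 10821 and 4262, and smooth muscle genes −0.78, with 2 of 7. Pan-epithelial markers had a median of −0.61 with 0 of 8 past 2-fold and sums of 537 and 334. Fat and retinol handling genes of enterocytes had −1.16 with 4 of 8 at least 2-fold lower, and goblet cell genes −0.48 with 2 of 7. Crypt and proliferation genes went the other way, with a median of 0.28, 5 of 5 above 0 and 1 at least 2-fold higher. When quantiles of the 4 arrays were normalized, these medians became −2.50 for blood, 0.31 for acinar, −0.41 for smooth muscle, −0.14 for pan-epithelial and 0.05 for fat handling genes. For goblet cell genes the median became 0.22, and for crypt and proliferation genes 0.31. The part of these lists in the members' differences was not tested.

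Between the spinal cord arrays 26 members were well above background on both. On the KO-labelled array 1 member was at least 2-fold higher, where 2.28% of all 25223 genes were, and 0 were at least 2-fold lower, where 0.864% were. The median log2 difference was −0.03 over the members and −0.04 over all 24166 genes measured on both. Dpp4 was the one past 2-fold, with 9.94 on the WT and 28.9 on the KO-labelled array, a difference of 1.44 with a spot SD of 0.193. These are low signals, and the value was 0.29 with normexp when flagged local backgrounds were replaced. Anpep had 224 and 360 with 0.58, and Ush1c had 81.1 and 57.6 with −0.60, which its second probe also placed lower, from 5.73 to 3.03, the latter not well above background. Sis was above background only on the KO-labelled array, at least 1.37-fold higher. The remaining members lay between −0.41 for Slc26a3 and 0.33 for Cdhr5, and the bright carriers Slc3a2, Slc12a2 and Slc1a1 differed by 0.02, −0.05 and −0.09.

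Several lists of other cell type markers were also higher on the KO-labelled spinal cord array, and others were not. Genes of meninges and fibroblasts were at least 2-fold higher on the KO-labelled spinal cord array in 4 of 5 cases with a median of 1.29 and sums of 5.81 on the WT and 14.0 on the KO-labelled array. Skeletal muscle genes were at least 2-fold higher in 6 of 6 cases with a median of 4.12 and sums of 2.40 and 41.6, Schwann cell genes in 4 of 5 with 3.88 and sums of 5.18 and 28.6, and blood genes in 4 of 6 with 1.18 and sums of 228 and 351. Endothelium and pericyte genes had a median of 0.04 with 0 of 7 at least 2-fold higher, and smooth muscle genes 0.07 with 2 of 7. Neuronal genes had −0.05 with 0 of 7. The part of any of these lists in the differences of Dpp4 and Anpep was not tested.

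**Figure D5:**
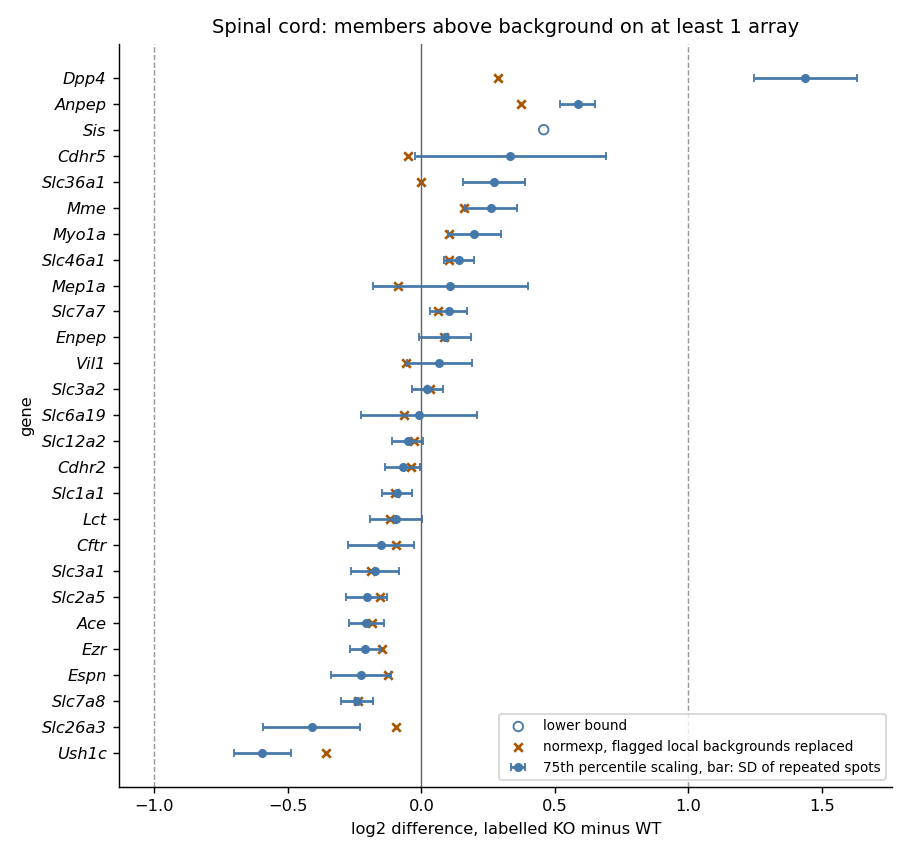
Log2 difference between the spinal cord arrays, KO-labelled minus WT, for the 27 members above background on at least 1 of them, sorted by value. Blue points carry the SD of repeated spots, the open point is a lower bound, crosses show normexp with flagged local backgrounds replaced, and dashed lines mark 2-fold. Dpp4 alone lies past 2-fold, at 1.44, and its cross lies at 0.29.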

How the data were processed

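RNA (0.1 µg per sample, integrity number above 7.0) was labelled with Cy3 and measured on 4 one-colour Agilent arrays of 1 slide. The authors deposited the scanner's output (Agilent Feature Extraction 11.5.1.1), whose processed signal is a background-subtracted intensity with flags for outlier spots and for spots well above background, and a table of log2 values. Per the values, that deposited log2 table is the processed signal, floored at 1 and quantile-normalized over the arrays. Values rebuilt in this way lay within 0.1 of it for 99.77% to 99.98% of probes, differed by up to 8.03 for a few others, and differed by at most 0.0144 for the members' probes, so it served as an alternative.

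Control and outlier spots (89 to 133 of 43020 per array) were left out, log2 signals were averaged per probe, and each array's 75th percentile was taken off. No spot was saturated. RefSeq (GRCm38.p6) named 25868 of 26391 probes with an NM accession, and 20144 genes had a symbol. A gene was represented by its probe of highest mean over the arrays. For differences within a tissue, a second probe is given where it differs in sign or by over 1. It is given for Mme, Espn and Ush1c as well. A gene entered a comparison if either array measured it well above background, and with 1 such array its difference is a lower bound against the lowest value above background there or its own. A difference of 2-fold was the threshold. All members are named, with the 3 highest and 3 lowest of the other brush border genes (Enpp7 had no match). Members, lists and thresholds were chosen with earlier results of these data known. Alternatives were normexp (limma 3.58.1 in R 4.3.3, offset 50, also after setting flagged local backgrounds to the median of their array), other scalings, a lowess on brightness (statsmodels 0.14.6), the mean of a gene's probes, other filters and 1.5-fold. The steps were tested on simulated data. No p-values were computed. The study's text does not describe these arrays.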

Additional observations from a re-analysis of the deposited data

Results flagged for a closer look

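For 3 of the 26 members measured on all 4 arrays, the representing probe differed in opposite directions between the duodenum and the spinal cord arrays. Each of these differences was over 2 SDs of repeated spots. The share of all genes that met this rule was not computed. The duodenum difference minus the spinal cord difference was −0.55 for Slc36a1 (−0.28 and 0.27), −0.74 for Slc46a1 (−0.60 and 0.14) and 0.79 for Ush1c (0.19 and −0.60). The second Slc36a1 probe differed by −2.22 in duodenum and by −0.093 in spinal cord, with the same sign in both. In spinal cord the Slc36a1 value was −1.74 with normexp, and 0.0005 when flagged local backgrounds were replaced. In duodenum Slc46a1 ran from −0.57 to 0.059 over the 8 alternatives, whereas Ush1c kept its sign under all 8 in both tissues. Each of the 3 rests on 1 array per group, and the difference between the tissues was not tested.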

How the results depend on the processing

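With 1 array per group no value has a spread between animals, and the WT duodenum array, the dimmest, limits what could be measured there. No paired analysis was possible because no group holds over 1 array. The cause of the shifts below was not tested. In duodenum, members at least 2-fold higher numbered 2, and 6 under either normexp setting, 4 with quantiles within each tissue, 38 with spiked-in scaling and 4 at 1.5-fold. Those at least 2-fold lower numbered 1, and 0 under both normexp settings, quantiles of the 4 arrays, spiked-in scaling and the deposited table, 2 with the mean of probes or no filter on dim probes, and 5 at 1.5-fold. The median of 0.07 became 0.56 under both normexp settings, 0.33 with quantiles of the 4 arrays and with the deposited table, 0.39 with quantiles within each tissue, 0.36 with lowess and 3.08 with spiked-in scaling. In spinal cord, 1 member was at least 2-fold higher, and 0 under both normexp settings, 2 with no filter and 2 at 1.5-fold. At least 2-fold lower were 0, and 15 under normexp, where the WT array had local backgrounds up to 15708, and 1 at 1.5-fold. The tissue counts stayed within 1.5 times. Members at least 2-fold higher in duodenum numbered 35 in the WT pair and 36 in the KO-labelled pair. They fell to 24 and 25 where both arrays had to be well above background, and to 26 and 33 with spiked-in scaling. Among members past 2-fold, signs reversed for Espn in duodenum under spiked-in scaling (1.64) and for Dpp4 in spinal cord under normexp (−1.89). Between tissues in the WT pair they reversed under spiked-in scaling for Mme (−0.27), Slc3a1 (−1.03), Slc3a2 (−2.79), Slc7a8 (−0.18), Slc36a1 (−0.93) and Cftr (−1.99), and with quantiles within each tissue for Slc3a2 (−0.62). In the KO-labelled pair quantiles within each tissue reversed Slc3a2 (−0.57) and Cftr (−0.014). Of the members under 2-fold, 17 of 34 in duodenum and 14 of 26 in spinal cord changed sign under at least 1 alternative, as did Slc12a2 between tissues in the KO-labelled pair (0.059 with the median of each array).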
